A study of Mus musculus with 4 samples.

Results

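Oxidative phosphorylation is carried out by 5 protein complexes of the inner mitochondrial membrane, and 91 genes named for it were followed in blood stem and progenitor cells that had lost Aspp1, p53 or both. The genes were taken by name: every gene probe whose symbol begins with Ndufa, Ndufb, Ndufc, Ndufs, Ndufv, Uqcr, Cox4 to Cox8 or Atp5, or reads Sdha, Sdhb, Sdhc, Sdhd or Cyc1. They were 91 of the 34844 gene names on the array and were covered by 135 probes, with 61 genes read by 1 probe and 30 by several. Of the 91 genes, 82 encode subunits: 36 of complex I, 4 of complex II, 9 of complex III, 18 of complex IV and 15 of complex V. The other 9 were not counted as subunits and entered by their name stem. Among them are the complex I assembly factors Ndufaf1 to Ndufaf4, and Cox4nb, which RefSeq calls Emc8 and which belongs to a protein complex of the endoplasmic reticulum.

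Complex I, or NADH dehydrogenase, complex II, or succinate dehydrogenase, and complex III, or cytochrome bc1, pass electrons to complex IV, cytochrome c oxidase, and the proton gradient built on the way drives complex V, the ATP synthase. Complexes I, III, IV and V are built from subunits of both the nuclear and the mitochondrial genome, and complex II from nuclear subunits alone. Haematopoietic stem cells are known for leaning on glycolysis at rest and on mitochondrial respiration as they differentiate, and p53 is known to act on both routes through genes such as Sco2, a factor that loads copper into complex IV.

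The cells were lineage-negative, Sca-1-positive and c-Kit-positive (LSK) bone marrow cells, the fraction with stem cells and multipotent progenitors, of 12-week-old male C57BL/6 mice. The genotypes were Aspp1-/-p53-/- (Mx1-Cre, p53flox/flox and Aspp1-/-), p53-/- (Mx1-Cre and p53flox/flox), Aspp1-/- and wild type (WT). Mice of all genotypes, WT included, received pIpC, a double-stranded RNA analogue that induces interferon and with it the Mx1 promoter that drives Cre, in 5 injections from 8 weeks of age, and were sampled 4 weeks later. The labels read 403 µg of pIpC for Aspp1-/-p53-/-, 402 µg for p53-/-, 401 µg for Aspp1-/- and 400 µg for WT, and the series design gives 400 µg for all. RNA of 3 mice was pooled per genotype and hybridised to 1 array, so no value below has a spread between mice. Both arrays from mice with Mx1-Cre, Aspp1-/-p53-/- and p53-/-, lay in slide row 2 and both others in slide row 1, so that loss of p53, Mx1-Cre and slide row cannot be told apart.

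The targeted genes were low on the arrays labelled for their loss. Ppp1r13b, which encodes Aspp1, had a log2 level of 1.94 on the Aspp1-/-p53-/- array, 4.46 on the p53-/- array, 1.91 on the Aspp1-/- array and 4.53 on the WT array, where 0 is the 75th percentile of the array's signals. Trp53 had −1.67 on the Aspp1-/-p53-/- array, −1.82 on the p53-/- array, 0.45 on the Aspp1-/- array and 0.36 on the WT array. Whether either probe lies in a deleted stretch was not checked here. All 9 LSK marker genes were well above background on every array, with a summed signal of 346 times the 75th percentile on the Aspp1-/-p53-/- array, 340 on the p53-/- array, 349 on the Aspp1-/- array and 342 on the WT array. Markers of granulocytes summed to 294 on the Aspp1-/-p53-/- array, 394 on the p53-/- array, 353 on the Aspp1-/- array and 407 on the WT array, with all 9 well above background on each, and their median difference from WT was −1.59 in Aspp1-/-p53-/-, −0.15 in p53-/- and −0.18 in Aspp1-/- cells. Median differences from WT were 0.085 in Aspp1-/-p53-/-, 0.33 in p53-/- and −0.38 in Aspp1-/- cells for 6 B lineage markers. For monocyte markers they were −0.42 in Aspp1-/- cells over 5 genes, and 0.16 in Aspp1-/-p53-/- and 0.22 in p53-/- cells over 4. The other monocyte marker was not well above background on the Aspp1-/-p53-/- and p53-/- arrays and lay at least 0.32 below WT on each. Markers of B cells, of the erythroid, T and NK lineages and of monocytes each summed to between 3.45 and 18.3 on every array, with Pax5, Cd3d, Cd8a and Ncr1 among the markers well above background on none. The part of these markers in the results below was not tested, and in such bulk samples fewer cells of a type and less RNA per cell cannot be told apart.

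Of the 91 genes, 87 were well above background on all 4 arrays and 4 on none. The 4 were Cox7b2 and Cox8c, the testis isoforms of 2 small complex IV subunits, Cox8b, the heart and muscle isoform, and Ndufa4l2, the hypoxia-induced paralogue of Ndufa4. Across the series, 19007 of 34844 gene names were well above background on all 4 arrays. The 75 subunits that are not tissue isoforms were all measured on every array.

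Levels of the subunits differed little between the genotypes. For 74 of these 75 subunits the highest and the lowest of the 4 arrays lay less than 0.32 apart on the log2 scale, which is the size used below to call a difference, and the exception was Ndufab1. The median range over the 4 arrays was 0.104 on the log2 scale, from 0.021 for the least to 0.338 for the most variable subunit. Brightness bears on such a range, so genes at least as bright as the lower quartile of the subunits serve for comparison: their median range was 0.124, and 89.9% of these 2238 genes stayed under 0.32. At the same brightness, all 56 subunits stayed under it. The scanner's own error for the difference of 2 spots, from its error model, was 0.204 for the median subunit, larger than most of the differences given below, and spots of the same probe on the same array had a median standard deviation of 0.076 to 0.085. Uqcrc2, a core protein of complex III that was spotted 9 or 10 times, had standard deviations between its spots of 0.032 on the Aspp1-/-p53-/- array, 0.024 on the p53-/- array, 0.041 on the Aspp1-/- array and 0.046 on the WT array.

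**Figure D1:**
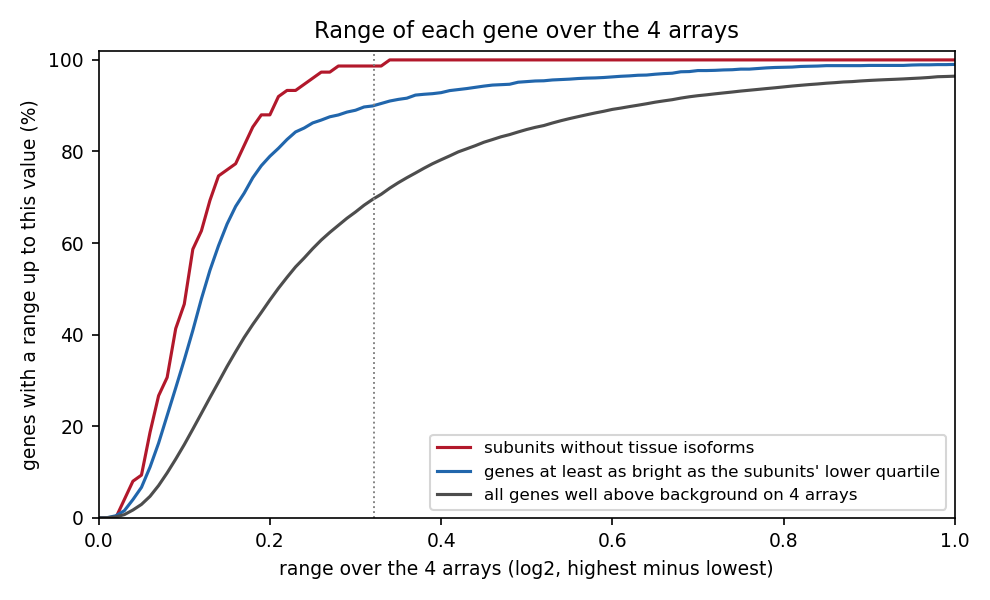
Cumulative share of genes (vertical axis, percent) by their range over the 4 arrays (horizontal axis, log2 of the highest over the lowest array) for the 75 subunits without tissue isoforms, for 2238 genes at least as bright as the subunits' lower quartile, and for all genes well above background on the 4 arrays. The dotted line marks 0.32, below which lie 98.7% of the subunits and 89.9% of the genes as bright.

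With each array scaled by its 75th percentile, 21 of the 75 subunits had their highest level on the Aspp1-/-p53-/- array, 1 on the p53-/- array, 48 on the Aspp1-/- array and 5 on the WT array. The lowest level was on the Aspp1-/-p53-/- array for 14, on the p53-/- array for 13, on the Aspp1-/- array for 1 and on the WT array for 47. These counts rest on 1 array per genotype, and on the scaling. Against WT, 55 of the 75 subunits lay higher in Aspp1-/-p53-/-, 49 in p53-/- and 67 in Aspp1-/- cells with this scaling, but 34 in Aspp1-/-p53-/-, 5 in p53-/- and 71 in Aspp1-/- cells when arrays were scaled by their median. With the first scaling, 51.2%, 53.7% and 51.0% of all genes lay above WT, in the same order. Of genes at least as bright as the subunits' lower quartile, 42.9%, 39.0% and 46.5% did. Scaling by a constant shifts all genes of an array alike. With either scaling 51, 40 and 63 subunits lay above the median of all genes. Shares of all genes by highest or lowest array were not taken.

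Promoter sequence was not used to choose the genes. RefSeq promoter windows (GRCm38.p6), from 250 bases before to 50 bases after a transcription start, were found for 74 of the 91 genes in 80 windows, and were searched on both strands for exact motif letters that may overlap one another. The letters GCGCATGCG, bound by NRF1, a transcription factor known for driving nuclear genes of the respiratory chain, were present for 9 of the 74 genes (12.2%), against 1.75% of all 32851 windows and 3.64% of the 10628 genes with a window that were measured in these cells. These 9 were Atp5g2, Atp5k, Atp5l, Cox6a1, Ndufa8, Ndufa11, Ndufaf4, Uqcr11 and Uqcrc1, and 6 of them held the letters on both strands at overlapping places. The letters CCGGAAG, bound by ETS factors such as GABP, were present for 17 genes (23.0%), against 8.86% of all windows and 17.3% of the measured genes.

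The letters AAGATGGC, bound by YY1, were present for 11 of the 74 genes (14.9%), against 2.75% of all windows and 4.66% of the measured genes. In 9 of the 12 windows of these genes with the motif it began 20 to 43 bases after the start, against 23.3% of the 903 such windows in all. These 9 matches began at bases 23 to 39, and the windows of Atp5sl among the 12 overlap. Whether the interval was set before the matches were seen is not recorded, so the contrast is a description only. The letters TCAAGGTCA, bound by oestrogen-related receptors, were present for 2 genes (Atp5g3 and Sdhd, 2.70%), against 0.423% of all windows and 0.367% of the measured genes. CCAAT was present for 34 (45.9%, against 37.4% of all windows and 42.6% of the measured genes) and GGGCGG, bound by SP1, for 33 (44.6%, against 35.7% of all windows and 62.4% of the measured genes). TATAAA was present for 7 (9.46%, against 13.6% of all windows and 10.3% of the measured genes). Of 50 genes for mitochondrial ribosomal proteins with a window, 12% had the NRF1, 38% the ETS and 18% the YY1 letters, beside 12.2%, 23.0% and 14.9% of the members. These matches describe letters, and no binding was measured.

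The 120 bases before the start are shown for 4 genes with the NRF1 letters on both strands, for Ndufs3, the core subunit of complex I with ETS letters before its start, and for Ndufab1, the subunit with the largest range, which had neither motif there. Capitals mark the NRF1 or ETS letters, and the strands and positions are those of chr4:24897963-24898082 (plus) for Ndufaf4, chr17:56717642-56717761 (plus) for Ndufa11, chr15:102671048-102671167 (minus) for Atp5g2, chr5:108434400-108434519 (minus) for Atp5k, chr2:90904722-90904841 (minus) for Ndufs3 and chr7:122101849-122101968 (minus) for Ndufab1.
Ndufaf4: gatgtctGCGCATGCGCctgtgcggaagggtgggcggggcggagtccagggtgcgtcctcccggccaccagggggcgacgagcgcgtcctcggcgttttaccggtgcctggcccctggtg
Ndufa11: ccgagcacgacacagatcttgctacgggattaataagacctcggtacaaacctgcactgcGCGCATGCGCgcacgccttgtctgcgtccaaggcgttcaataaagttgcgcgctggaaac
Atp5g2: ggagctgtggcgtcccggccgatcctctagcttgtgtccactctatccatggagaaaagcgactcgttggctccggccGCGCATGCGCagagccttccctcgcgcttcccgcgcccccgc
Atp5k: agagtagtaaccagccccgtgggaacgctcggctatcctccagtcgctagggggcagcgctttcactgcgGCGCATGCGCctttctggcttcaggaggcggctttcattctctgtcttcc
Ndufs3: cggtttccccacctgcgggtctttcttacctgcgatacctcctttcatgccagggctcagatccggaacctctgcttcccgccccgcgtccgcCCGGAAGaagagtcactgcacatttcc
Ndufab1: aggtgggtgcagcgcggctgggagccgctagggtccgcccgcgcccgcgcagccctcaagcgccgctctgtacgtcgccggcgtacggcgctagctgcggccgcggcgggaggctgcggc

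The YY1 letters are shown in bases 20 to 49 after the start for 6 complex I genes, in capitals, at chr10:80249468-80249497 (plus) for Ndufs7, chr13:114388046-114388075 (minus) for Ndufs4, chr13:73328434-73328463 (minus) for Ndufs6, chr6:126849096-126849125 (minus) for Ndufa9, chr7:3617392-3617421 (plus) for Ndufa3 and chr3:51408907-51408936 (minus) for Ndufc1. The searched letters themselves hold an ATG, and whether it is a start codon in these genes was not checked.
Ndufs7: aggccAAGATGGCggcgctggcgggtgagt
Ndufs4: ggcgtttgcctacaggAAGATGGCggcggt
Ndufs6: caagggtcaccggcAAGATGGCggcggtgc
Ndufa9: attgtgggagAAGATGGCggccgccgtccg
Ndufa3: aacAAGATGGCcgggagtaagtacaggttt
Ndufc1: aacAAGATGGCgccgtccgtagtgctgcgc

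With 1 array per genotype no comparison of 2 arrays has a test, and a gene was called by size, at a log2 difference of 0.32 and at 2-fold. Aspp1-/- against WT cells asked what differs when Aspp1 alone is lost. The members lay slightly above WT as a group, with a median log2 difference of 0.063 over 87 genes and 73 of them above 0, against a median of 0.0056 and 51.0% above 0 over all genes. Genes at least as bright as the subunits' lower quartile had a median of −0.0078. No member passed 2-fold, where 1.33% of 21547 genes lay higher and 2.16% lower. Past 0.32, 1 member (Ndufaf4) lay higher and 1 (Cox6a2) lower, beside 7.18% of all genes higher and 9.58% lower. Among the 10129 genes at least as bright as the dimmest subunit, 181 lay higher and 239 lower by that much, a share near that of the members.

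p53-/- against WT cells asked what differs when p53 alone is lost. The median of the members was 0.021, with 56 of 87 above 0, against a median of 0.017 and 53.7% above 0 over all genes. Genes at least as bright as the subunits' lower quartile had a median of −0.026, with 39.0% above 0. No member passed 0.32, against 9.68% of 21413 genes higher and 8.37% lower, and none passed 2-fold, against 3.67% higher and 1.54% lower. Of the 10129 genes at least as bright as the dimmest subunit, 95.7% also stayed within 0.32 of WT here. Aspp1-/-p53-/- against WT cells asked what differs when both are lost. The median was 0.043, with 62 of 87 above 0, against a median of 0.013 and 51.2% above 0 over all genes. The bright genes had a median of −0.024, with 42.9% above 0. Ndufab1 was the 1 member past 0.32, on the high side, against 11.8% of 21267 genes higher and 13% lower, and none passed 2-fold, against 3.55% higher and 2.47% lower. Of the 10129 genes at least as bright as the dimmest subunit, 90.1% stayed within 0.32 of WT in this comparison. These 3 comparisons share the WT array.

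**Figure D2:**
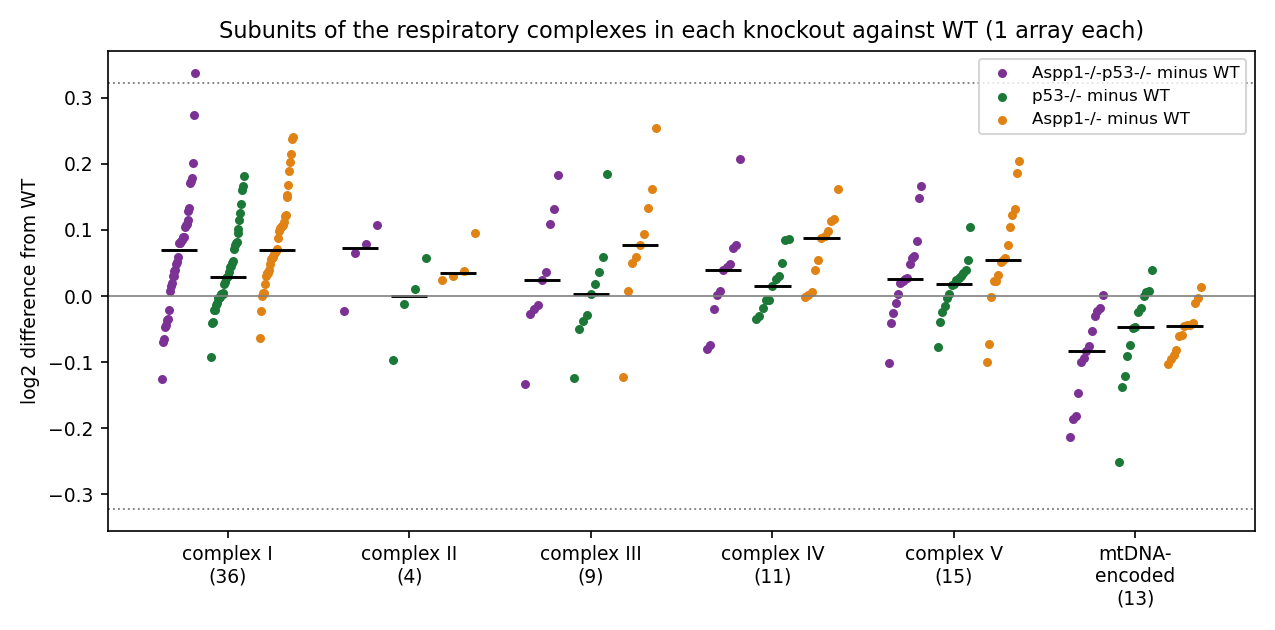
Log2 difference from WT (vertical axis) of each subunit, for Aspp1-/-p53-/-, p53-/- and Aspp1-/- cells, by complex (75 nuclear subunits without tissue isoforms) and for the 13 subunits encoded by mitochondrial DNA. Points are genes, short lines are medians and dotted lines mark 0.32 on either side, and the nuclear medians lie between −0.0004 and 0.088 while those of the mitochondrially encoded subunits lie between −0.083 and −0.045.

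Complex I takes electrons from NADH and passes them along a chain of iron-sulfur clusters to ubiquinone. Its 7 core subunits of the nuclear genome, which carry the flavin and the clusters or bind the quinone, had medians of 0.17 in Aspp1-/-p53-/-, 0.10 in p53-/- and 0.10 in Aspp1-/- cells against WT, with all 7 above 0 in each. Ndufs7, an iron-sulfur subunit next to the quinone site, had log2 levels of 5.54 on the Aspp1-/-p53-/- array, 5.52 on the p53-/- array, 5.54 on the Aspp1-/- array and 5.34 on the WT array. WT stood apart as the lowest, with differences from it of 0.20 in Aspp1-/-p53-/-, 0.18 in p53-/- and 0.20 in Aspp1-/- cells.

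Ndufs8, a further iron-sulfur subunit, had 3.36 on the Aspp1-/-p53-/- array, 3.34 on the p53-/- array, 3.28 on the Aspp1-/- array and 3.18 on the WT array. Ndufs3, a core subunit of the arm that faces the matrix, had 4.92 on the Aspp1-/-p53-/- array, 4.88 on the p53-/- array, 4.84 on the Aspp1-/- array and 4.74 on the WT array. Both thus had their lowest level on the WT array and their highest on the Aspp1-/-p53-/- array. Ndufv2, an iron-sulfur subunit of the NADH-binding module, lay above WT by 0.17 in Aspp1-/-p53-/-, 0.10 in p53-/- and 0.10 in Aspp1-/- cells. Ndufs1, the 75 kDa iron-sulfur subunit, lay above WT by 0.12 in Aspp1-/-p53-/-, 0.08 in p53-/- and 0.12 in Aspp1-/- cells. Ndufv1, which binds NADH and the flavin, was the flattest of the 7, with a range over the arrays of 0.07.

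How the arrays are scaled bears on that direction. When each array was scaled by its median, 6 of the 7 core subunits stayed above 0 in Aspp1-/-p53-/-, 3 in p53-/- and 7 in Aspp1-/- cells, and with normexp background correction 6 of 7 did in each. Relative to the median of all genes, which scaling by a constant leaves unchanged, the 7 had a median difference of 0.158 in Aspp1-/-p53-/-, 0.085 in p53-/- and 0.097 in Aspp1-/- cells against WT. With normexp this was 0.105 in Aspp1-/-p53-/-, 0.098 in p53-/- and 0.123 in Aspp1-/- cells.

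The 29 accessory subunits of complex I, which surround and stabilise the core, had medians of 0.048 in Aspp1-/-p53-/-, 0.021 in p53-/- and 0.063 in Aspp1-/- cells against WT, with 21 above 0 in Aspp1-/-p53-/-, 19 in p53-/- and 26 in Aspp1-/- cells. Of all genes, 51.2%, 53.7% and 51.0% lay above 0, in that order. Ndufab1, which is also the acyl carrier protein of mitochondrial fatty acid synthesis (probe at chr7:129231667-129231726, minus strand, mm9), had 0.52 on the Aspp1-/-p53-/- array, 0.34 on the p53-/- array, 0.42 on the Aspp1-/- array and 0.18 on the WT array. All knockouts lay above WT, by 0.34 in Aspp1-/-p53-/-, 0.16 in p53-/- and 0.24 in Aspp1-/- cells. Its unscaled signal was the lowest of the 36 complex I genes, at 771 on the Aspp1-/-p53-/- array, 737 on the p53-/- array, 802 on the Aspp1-/- array and 648 on the WT array. Ndufa5, an accessory subunit of the matrix arm, had 5.25 on the Aspp1-/-p53-/- array, 5.10 on the p53-/- array, 5.12 on the Aspp1-/- array and 4.97 on the WT array. It lay above WT by 0.27 in Aspp1-/-p53-/-, 0.13 in p53-/- and 0.15 in Aspp1-/- cells, and a further Ndufa5 probe gave 0.19 in Aspp1-/-p53-/-, 0.14 in p53-/- and 0.18 in Aspp1-/- cells.

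Ndufa12, another accessory subunit, had 5.29 on the Aspp1-/-p53-/- array, 5.33 on the p53-/- array, 5.49 on the Aspp1-/- array and 5.25 on the WT array, so that the Aspp1-/- array alone was high. Ndufb6, of the membrane arm, had 3.74 on the Aspp1-/-p53-/- array, 3.63 on the p53-/- array, 3.82 on the Aspp1-/- array and 3.60 on the WT array, again with its top on the Aspp1-/- array. A further Ndufb6 probe lay at −0.04 in Aspp1-/-p53-/-, −0.02 in p53-/- and 0.17 in Aspp1-/- cells against WT. Ndufa6 was the lowest complex I gene in Aspp1-/-p53-/- against WT cells, at −0.13.

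The assembly factors help to build complex I and leave the finished enzyme. Ndufaf4 (probe at chr4:24829194-24829253, plus strand, mm9) had 2.56 on the Aspp1-/-p53-/- array, 2.39 on the p53-/- array, 2.67 on the Aspp1-/- array and 2.33 on the WT array. It lay above WT by 0.23 in Aspp1-/-p53-/-, 0.06 in p53-/- and 0.34 in Aspp1-/- cells, and a further probe of the gene gave 0.28 in Aspp1-/-p53-/-, 0.18 in p53-/- and 0.35 in Aspp1-/- cells. Ndufaf3, its partner in early assembly, had 0.51 on the Aspp1-/-p53-/- array, 0.82 on the p53-/- array, 0.54 on the Aspp1-/- array and 0.69 on the WT array. Its difference of −0.31 in Aspp1-/-p53-/- against p53-/- cells was the largest of any member in that comparison and stayed just short of 0.32. Ndufaf1 lay 0.25 above WT in Aspp1-/-p53-/-, 0.15 in p53-/- and 0.11 in Aspp1-/- cells, and Ndufaf2 at −0.02 in Aspp1-/-p53-/-, −0.09 in p53-/- and 0.09 in Aspp1-/- cells.

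Complex II oxidises succinate and is also an enzyme of the citric acid cycle. Sdha, its flavoprotein, had 4.99 on the Aspp1-/-p53-/- array, 4.94 on the p53-/- array, 5.02 on the Aspp1-/- array and 4.93 on the WT array. Sdhb, the iron-sulfur subunit, had 5.54 on the Aspp1-/-p53-/- array, 5.46 on the p53-/- array, 5.58 on the Aspp1-/- array and 5.56 on the WT array. The membrane anchors Sdhc and Sdhd lay within 0.11 of WT in every knockout. The p53-/- array had the lowest Sdhb level of the 4 by the brightest probe, at −0.096 against WT, but a further Sdhb probe lay at 0.064.

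Complex III hands electrons from ubiquinol to cytochrome c. Its catalytic subunits of the nuclear genome lay on opposite sides of WT. Cyc1, cytochrome c1 (probe at chr15:76175938-76175997, plus strand, mm9), had 4.32 on the Aspp1-/-p53-/- array, 4.32 on the p53-/- array, 4.39 on the Aspp1-/- array and 4.14 on the WT array. Uqcrfs1, the Rieske iron-sulfur protein, had 4.27 on the Aspp1-/-p53-/- array, 4.28 on the p53-/- array, 4.28 on the Aspp1-/- array and 4.41 on the WT array. The WT array was thus the lowest of the 4 for Cyc1 and the highest for Uqcrfs1, which lay at −0.13 in Aspp1-/-p53-/-, −0.12 in p53-/- and −0.12 in Aspp1-/- cells. The core proteins Uqcrc1 and Uqcrc2 lay at 0.04 and −0.02 in Aspp1-/-p53-/-, 0.04 and −0.03 in p53-/-, and 0.13 and 0.05 in Aspp1-/- cells against WT. Of the 5 small subunits, Uqcr10 had the largest difference from WT, at 0.16 in Aspp1-/- cells.

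Complex IV reduces oxygen to water. Among its nuclear subunits Cox5a had 6.43 on the Aspp1-/-p53-/- array, 6.40 on the p53-/- array, 6.51 on the Aspp1-/- array and 6.35 on the WT array. Cox4i1, the regulatory subunit of most tissues, had 6.50 on the Aspp1-/-p53-/- array, 6.55 on the p53-/- array, 6.59 on the Aspp1-/- array and 6.58 on the WT array. Cox5b lay within 0.10 of WT in each knockout. Ndufa4, first assigned to complex I and now known as a subunit of complex IV, had 5.37 on the Aspp1-/-p53-/- array, 5.25 on the p53-/- array, 5.28 on the Aspp1-/- array and 5.16 on the WT array, the largest range among the ubiquitous complex IV subunits.

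Tissue isoforms replace the ubiquitous complex IV subunits in muscle, lung or testis. Of the 7, Cox6a2, Cox7a1, Cox4i2 and Cox6b2 were well above background on every array. Cox6a2, the heart and muscle isoform (probe at chr7:135349160-135349219, minus strand, mm9), had 1.34 on the Aspp1-/-p53-/- array, 1.31 on the p53-/- array, 1.05 on the Aspp1-/- array and 1.41 on the WT array. The Aspp1-/- array stood alone as low, at −0.36 against WT, while Cox6a2 lay at −0.07 in Aspp1-/-p53-/- and −0.09 in p53-/- cells. Cox7a1, the other heart and muscle isoform, had −1.09 on the Aspp1-/-p53-/- array, −1.05 on the p53-/- array, −1.06 on the Aspp1-/- array and −1.21 on the WT array. Of 7 marker genes of muscle and fat, Acta1, Ckm, Myh4, Adipoq, Plin1 and Ucp1 were well above background on no array. The other, Tnnt3, was well above background on the Aspp1-/- and WT arrays only, and lay 0.28 above WT in Aspp1-/- cells. The 7 summed to 0.110 times the 75th percentile on the Aspp1-/-p53-/- array, 0.114 on the p53-/- array, 0.120 on the Aspp1-/- array and 0.117 on the WT array. Cox4i2, the lung isoform, and Cox6b2, the testis isoform, lay close to WT, with Cox4i2 at 0.10 in Aspp1-/-p53-/-, 0.07 in p53-/- and −0.01 in Aspp1-/- cells and Cox6b2 at 0.02 in Aspp1-/-p53-/-, −0.06 in p53-/- and −0.06 in Aspp1-/- cells.

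Complex V makes ATP as its rotor turns. The F1 subunits Atp5a1, Atp5b and Atp5c1 (alpha, the catalytic beta, and gamma) lay between −0.01 and 0.08 in Aspp1-/-p53-/-, between −0.004 and 0.03 in p53-/-, and between 0.06 and 0.10 in Aspp1-/- cells against WT. The genes Atp5g1, Atp5g2 and Atp5g3 encode the same mature subunit of the rotor ring. Atp5g1 had 6.10 on the Aspp1-/-p53-/- array, 6.15 on the p53-/- array, 6.23 on the Aspp1-/- array and 6.04 on the WT array. Atp5g2 had 7.52 on the Aspp1-/-p53-/- array, 7.54 on the p53-/- array, 7.52 on the Aspp1-/- array and 7.62 on the WT array. WT was thus the lowest array for Atp5g1 and the highest for Atp5g2. The further probe of Atp5g1 gave 0.12 in Aspp1-/-p53-/-, 0.03 in p53-/- and −0.05 in Aspp1-/- cells, and that of Atp5g2 gave −0.14 in Aspp1-/-p53-/-, −0.03 in p53-/- and −0.08 in Aspp1-/- cells. Atp5g3 lay at 0.03 in Aspp1-/-p53-/-, 0.04 in p53-/- and 0.05 in Aspp1-/- cells.

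Atp5e, the epsilon subunit of F1, had 6.14 on the Aspp1-/-p53-/- array, 5.93 on the p53-/- array, 5.90 on the Aspp1-/- array and 5.97 on the WT array. The Aspp1-/-p53-/- array alone was high, by 0.21 over p53-/- and 0.24 over Aspp1-/- cells, the largest difference of any ubiquitous subunit in either of these comparisons. Atp5k, the e subunit, lay 0.15 above WT in Aspp1-/-p53-/-, 0.05 in p53-/- and 0.20 in Aspp1-/- cells. Cox7a2l, a factor that joins complexes III and IV into supercomplexes, lay at −0.13 in Aspp1-/-p53-/-, −0.07 in p53-/- and −0.13 in Aspp1-/- cells. A further Cox7a2l probe gave −0.09 in Aspp1-/-p53-/-, −0.01 in p53-/- and 0.02 in Aspp1-/- cells. Another, dimmer probe gave −0.16 in Aspp1-/-p53-/-, −0.05 in p53-/- and −0.10 in Aspp1-/- cells.

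**Figure D3:**
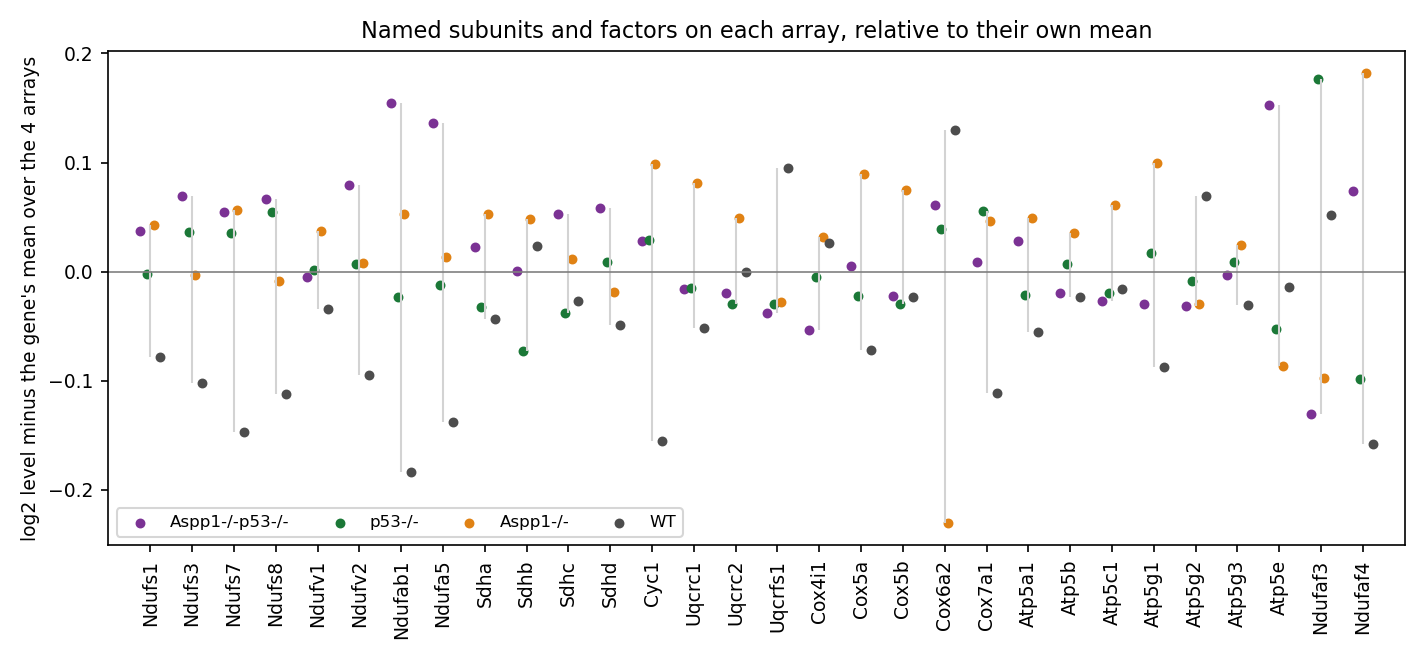
Log2 level of 30 named subunits and factors on the Aspp1-/-p53-/-, p53-/-, Aspp1-/- and WT arrays, each minus the gene's own mean over the 4 arrays (vertical axis). Each point is 1 array and vertical lines span the 4 arrays, and WT is the lowest point for Ndufs7, Ndufab1, Ndufa5, Cyc1 and Ndufaf4 and the highest for Uqcrfs1, Cox6a2 and Atp5g2.

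Aspp1-/-p53-/- against p53-/- cells asked what the loss of Aspp1 does once p53 is gone, on arrays of the same slide row from mice that all carried Mx1-Cre. The median of the members was 0.023, with 57 of 87 above 0, against a median of −0.0024 and 48.3% above 0 over all genes. The bright genes had a median of 0.0011, with 50.6% above 0. No member passed 0.32, against 7.63% of 21165 genes higher and 11% lower, and none passed 2-fold, against 2.49% higher and 3.3% lower. Of the 10129 genes at least as bright as the dimmest subunit, 96.3% also stayed within 0.32. The 5 highest members were Atp5e at 0.21, Ndufab1 at 0.18, Ndufaf4 at 0.17, Ndufa5 at 0.15 and Ndufa4 at 0.12, and the lowest after Ndufaf3 was Ndufa6 at −0.09. By their brightest probes all 4 complex II genes lay above 0, between 0.049 and 0.091. A further Sdhb probe lay at −0.060 and a further Sdhc probe at 1.8e-05.

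Aspp1-/-p53-/- against Aspp1-/- cells asked what the loss of p53 does once Aspp1 is gone. The members lay slightly lower as a group, with a median of −0.031 and 58 of 87 below 0, against a median of −0.00098 and 48.7% above 0 over all genes. Genes at least as bright as the subunits' lower quartile lay close to that, with a median of −0.023 and 39.7% above 0. No member passed 0.32, against 10.4% of 21122 genes higher and 10.1% lower, and none passed 2-fold, against 3.74% higher and 1.97% lower. Of the 10129 genes at least as bright as the dimmest subunit, 93.4% also stayed within 0.32. The highest member was Cox6a2 at 0.29, followed by Atp5e at 0.24. The lowest members were Ndufa12 at −0.20, Atp5h, a stalk subunit of the ATP synthase, at −0.15 and Ndufa9, a complex I accessory subunit, at −0.14. Complexes I, III, IV and V had medians of −0.025, −0.035, −0.040 and −0.027, and complex II had 0.0055, with 2 of its 4 genes above 0.

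The loss of Aspp1 was measured on 2 pairs of arrays that share none, with p53 present and with p53 absent. Of the 87 members, 57 lay on the same side of 0 in both pairs, 50 of them above it, against 60.0% of the 19007 genes well above background on every array. Across the 87 members Pearson's r was 0.30 and Spearman's rho 0.20, a description across genes that share arrays and cells. Over the 75 subunits without isoforms r was 0.17, and over the 10129 genes at least as bright as the dimmest subunit it was 0.41, with 62.2% on the same side of 0. The median was 0.023 with p53 absent and 0.063 with p53 present. For the loss of p53, 42 of 87 lay on the same side of 0 with Aspp1 absent and present, against 61.2% of all genes.

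**Figure D4:**
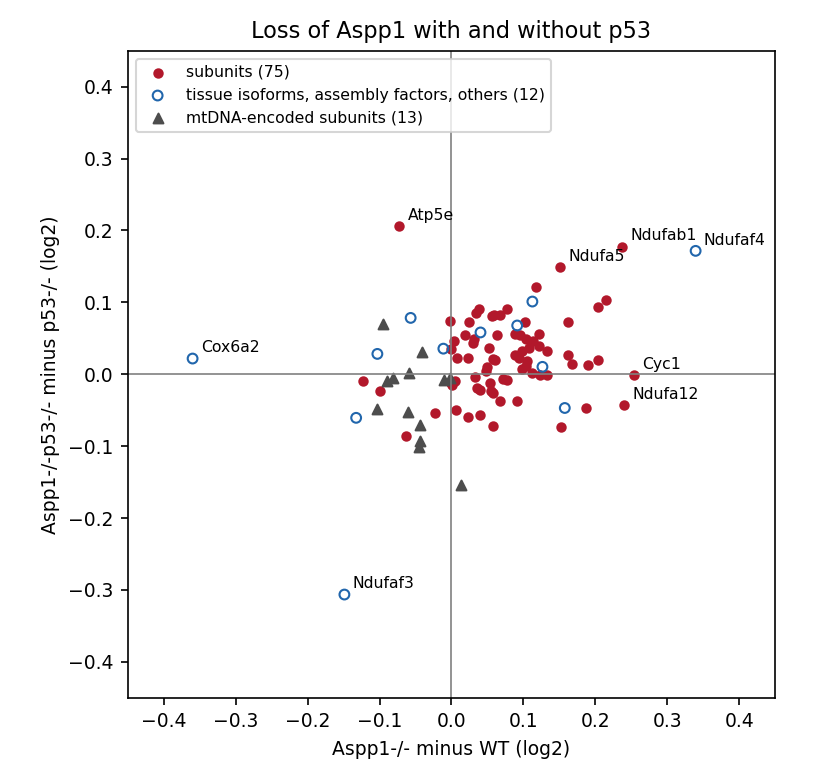
Log2 difference of Aspp1-/-p53-/- from p53-/- cells (vertical axis) against that of Aspp1-/- from WT cells (horizontal axis) for 75 subunits, 12 other members and 13 mitochondrially encoded subunits. Most subunits lie right of 0 and near 0 on the vertical axis; Ndufab1, Ndufaf4 and Ndufa5 lie above 0 on both axes, Cox6a2 lies at −0.36 and 0.02, and Ndufaf3 below 0 on both.

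A model in limma with 1 term for each lost gene, fitted over all 22795 measured genes with 1 residual degree of freedom, gave the only test. No member passed an adjusted p of 0.05 for the loss of Aspp1 or of p53, and neither did any other gene (0%). At an unadjusted p under 0.05 there were 0 members for either loss, against 4.79% of all genes for Aspp1 and 7.47% for p53. The lowest adjusted p among the members in limma was 0.730 for Aspp1, a value shared by several members with Ndufab1 (log2 effect 0.21, standard error 0.059) and Ndufaf4 (0.26, standard error 0.080) among them, and 0.668 for p53. On simulated data this fit called none of the planted changes, so that its count of 0 says nothing about stability. With a prior that follows brightness and allows for outliers, limma called 17 genes higher and 39 lower for the loss of Aspp1 and 148 higher and 271 lower for that of p53, and 0 of the members; at an unadjusted p under 0.05 it had 6 members higher and 1 lower for Aspp1, against 9.28% of all genes, and 2 higher for p53, against 12.6%.

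The remaining subunits of the respiratory chain are encoded in the mitochondrial genome, and all 13 of its mRNAs were well above background on every array. They lay below WT where most nuclear subunits lay above it, in 12 of 13 genes in Aspp1-/-p53-/-, 9 of 13 in p53-/- and 12 of 13 in Aspp1-/- cells, with medians of −0.083 in Aspp1-/-p53-/-, −0.047 in p53-/- and −0.045 in Aspp1-/- cells. Of all genes, 51.2% lay above WT in Aspp1-/-p53-/-, 53.7% in p53-/- and 51.0% in Aspp1-/- cells. ND3, a complex I subunit, had 5.47 on the Aspp1-/-p53-/- array, 5.57 on the p53-/- array, 5.65 on the Aspp1-/- array and 5.69 on the WT array. ND6, the complex I subunit read from the other strand, had 0.98 on the Aspp1-/-p53-/- array, 0.91 on the p53-/- array, 1.06 on the Aspp1-/- array and 1.16 on the WT array. COX1, the catalytic subunit of complex IV, had 8.70 on the Aspp1-/-p53-/- array, 8.70 on the p53-/- array, 8.64 on the Aspp1-/- array and 8.70 on the WT array. COX1 was thus level across 3 arrays, while ND1, ND3, ND4L and ND6 lay between −0.21 and −0.15 in Aspp1-/-p53-/- against WT cells, and none of the 13 passed 0.32.

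The median of the 75 nuclear subunits minus that of the 13 mitochondrial ones, which array scaling by a constant does not change, was 0.127 in Aspp1-/-p53-/-, 0.066 in p53-/- and 0.112 in Aspp1-/- cells against WT. After quantile normalization it was 0.111 in Aspp1-/-p53-/-, 0.030 in p53-/- and 0.091 in Aspp1-/- cells, and only 6 of the 13 mitochondrial genes lay below WT in p53-/- cells. The 2238 genes as bright as the subunits' lower quartile also had medians below 0, at −0.024 in Aspp1-/-p53-/-, −0.026 in p53-/- and −0.0078 in Aspp1-/- cells against WT.

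Proteins of the mitochondrial ribosome, which translate those 13 mRNAs, were followed in 57 genes chosen as a list. Their medians were 0.083 in Aspp1-/-p53-/-, 0.055 in p53-/- and 0.104 in Aspp1-/- cells against WT, with 50 above 0 in Aspp1-/-p53-/-, 49 in p53-/- and 50 in Aspp1-/- cells and none past 0.32. The shares of all genes above 0 were 51.2%, 53.7% and 51.0%, in that order. The 18 genes of the citric acid cycle had medians of 0.037 in Aspp1-/-p53-/-, 0.051 in p53-/- and 0.060 in Aspp1-/- cells, and also none past 0.32. The 17 glycolysis genes had −0.012 in Aspp1-/-p53-/-, 0.016 in p53-/- and 0.10 in Aspp1-/- cells, with Hk2, a hexokinase, at −0.33 in Aspp1-/-p53-/- against Aspp1-/- cells as the 1 gene past 0.32 in any of the 5 comparisons. The 20 genes of the G2/M list, made for the state of the cell cycle, had medians of 0.096 in Aspp1-/-p53-/-, −0.013 in p53-/- and −0.0073 in Aspp1-/- cells, with none past 0.32.

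Regulators of mitochondrial biogenesis and of the mitochondrial genome held larger single differences than the subunits. Brightness was not matched in this contrast, and Ppargc1a was dimmer than all 75 subunits, whose lowest mean level was 0.37. Of 18 regulators, 4 lay at least 0.32 higher and 1 lower in Aspp1-/-p53-/- cells against WT (all genes: 11.8% higher and 13% lower). In p53-/- cells 1 lay higher and 1 lower (all genes: 9.68% and 8.37%), and in Aspp1-/- cells 2 lay higher and 1 lower (all genes: 7.18% and 9.58%), so that the counts in p53-/- and Aspp1-/- cells are near the shares of all genes or below them. Ppargc1a, the coactivator PGC-1alpha that drives respiratory genes, had −2.64 on the Aspp1-/-p53-/- array, −2.30 on the p53-/- array, −2.37 on the Aspp1-/- array and −1.85 on the WT array. It was the 1 gene of the list past 0.32 on the low side in each, at −0.79 in Aspp1-/-p53-/-, −0.45 in p53-/- and −0.52 in Aspp1-/- cells. Ssbp1, which binds single-stranded mitochondrial DNA, had 4.26 on the Aspp1-/-p53-/- array, 4.05 on the p53-/- array, 4.07 on the Aspp1-/- array and 3.87 on the WT array. Mterf, a terminator of mitochondrial transcription, lay at 0.53 in Aspp1-/-p53-/-, 0.21 in p53-/- and 0.02 in Aspp1-/- cells. Polg2, the accessory subunit of the mitochondrial DNA polymerase, lay at 0.16 in Aspp1-/-p53-/-, 0.49 in p53-/- and 0.42 in Aspp1-/- cells. WT was the lowest array for each of these 3 and the highest for Ppargc1a.

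Of 25 further assembly factors, 2 lay at least 0.32 higher and 1 lower in Aspp1-/-p53-/-, 2 higher in p53-/- and 2 higher in Aspp1-/- cells against WT, beside 11.8% of all genes higher and 13% lower in Aspp1-/-p53-/-, 9.68% higher in p53-/- and 7.18% higher in Aspp1-/- cells. The 1 lower was Cox17, a copper chaperone, at least 0.42 lower since it was not well above background on the Aspp1-/-p53-/- array. Lyrm7, an assembly factor of complex III, had the largest difference, at 1.36 in Aspp1-/- against WT cells, and was well above background on these 2 arrays only. Cox11, a copper chaperone of complex IV, had 1.95 on the Aspp1-/-p53-/- array, 1.97 on the p53-/- array, 1.65 on the Aspp1-/- array and 1.52 on the WT array, so that both arrays without p53 were high. Sco2 had 2.69 on the Aspp1-/-p53-/- array, 2.76 on the p53-/- array, 2.90 on the Aspp1-/- array and 2.57 on the WT array, so that it lay above WT in each knockout, and 0.21 lower in Aspp1-/-p53-/- than in Aspp1-/- cells. Sdhaf1, which helps to assemble complex II, lay at 0.36 in Aspp1-/-p53-/-, 0.29 in p53-/- and 0.30 in Aspp1-/- cells. Sco1, the partner of Sco2, lay at 0.02 in Aspp1-/-p53-/-, 0.47 in p53-/- and 0.05 in Aspp1-/- cells, high on the p53-/- array alone. Gls2, a glutaminase listed among p53-linked metabolic genes, had −2.98 on the Aspp1-/-p53-/- array, −3.10 on the p53-/- array, −2.53 on the Aspp1-/- array and −3.22 on the WT array, high on the Aspp1-/- array alone at 0.69 over WT. It was dimmer than all 75 subunits. The 11 measured genes of its list had medians of −0.054 in Aspp1-/-p53-/-, 0.075 in p53-/- and 0.025 in Aspp1-/- cells against WT. Past 0.32 lay 2 of them, both higher and in Aspp1-/- cells, beside 7.18% of all genes higher there.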

How the data were processed

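RNA of 4 pooled samples was measured on 1-colour Agilent arrays. Each deposited scanner file holds a spot's processed intensity, from which Feature Extraction 10.7.3.1 had already taken the background (per the file headers), its mean and background intensity, and other columns that mark outlying spots and those well above background. No spot was saturated. Probe positions are those of mm9, per the file headers. The authors' value table holds log2 values centred on each probe's median over the arrays (read from the values), with column medians of 0.048 for Aspp1-/-p53-/-, 0.027 for p53-/-, −0.042 for Aspp1-/- and −0.066 for WT. How its constant per array was set was not found in the labels or headers.

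Each array had 59305 gene spots and 3671 control spots, and outlying spots (120 to 172 an array) and controls were left out. Of 55681 probes, 55675 had a value on all 4 arrays. The log2 intensity was set relative to the array's 75th percentile (a signal of 537 for Aspp1-/-p53-/-, 580 for p53-/-, 599 for Aspp1-/- and 571 for WT), and a gene was read by its brightest probe. A gene not well above background on 1 of 2 arrays entered counts with a bound, and medians use genes measured on both. The additive model was fitted with limma 3.58.1 in R 4.3.3 and tested on simulated data, and other steps used Python 3.11.15. The number of arrays limits the precision. The members, gene lists, alternatives and the rule for named genes (the 5 highest and 5 lowest members of a comparison, those past a log2 difference of 0.32, tissue isoforms and catalytic subunits) were chosen with earlier results of these data known. All 91 names matched RefSeq (GRCm38.p6), 4 under another symbol. The set of genes as bright as the subunits' lower quartile was added after the data were seen. The NRF1 motif was first searched with 10 letters and then with the 9 given here. Some genes are not reported here by name.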

Additional observations from a re-analysis of the deposited data

Results flagged for a closer look

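The members' median for the loss of p53 differed in sign with the state of Aspp1. It was 0.021 for p53-/- cells set against WT, where Aspp1 was present, but −0.031 for Aspp1-/-p53-/- cells set against Aspp1-/- cells. Cox6a2, the heart and muscle isoform, lay at −0.36 when Aspp1-/- cells were set against WT and at 0.022 when Aspp1-/-p53-/- cells were set against p53-/- cells. Each value rests on 1 array per genotype, and neither difference was tested.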

How the results depend on the processing

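Of 8 alternatives to each comparison, all kept the direction of the members' median in Aspp1-/- against WT (0.060 to 0.097) and in Aspp1-/-p53-/- against p53-/- cells (0.021 to 0.101). Median scaling turned the median to −0.108 in p53-/- against WT and to −0.0068 in Aspp1-/-p53-/- against WT, where it also moved the median of all genes to −0.112 and −0.037 and left 0 members at least 0.32 higher in the second. Quantile normalization turned the median in Aspp1-/-p53-/- against Aspp1-/- cells to 0.014. In Aspp1-/- against WT, 0 members lay at least 0.32 higher with normexp background correction, with subunits alone, or without isoforms, assembly factors and others, and the last also left 0 lower; the membership changes leave out Ndufaf4 and Cox6a2 by construction. The cause of the other changes was not tested. In limma 0 members passed an adjusted p of 0.05 for either loss under all 7 alternatives. Except with the prior that follows brightness, 0 of all genes passed under them either, so these counts of 0 say nothing about stability. Of 1690 values for single genes and groups under the alternatives, 1585 were labelled the same and 105 moved, and 0 called values reversed. The same meant a shift under the spread between spots (0.085), for group medians also with an unchanged sign. A single gene could thus change sign and still be labelled the same. Only a main value of at least 0.32 in size could be labelled reversed. Few members reached that, so the count of 0 says little about the direction of small differences. Counts of genes were instead labelled by their ratio to the main count. A further probe had the same sign as the brightest in 16 to 21 of 29 members. No paired analysis was possible because each genotype has 1 array.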
